A study of Mus musculus with 3 samples.

Results

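Vegfa and 9 further genes of the hypoxia response were followed across the 3 arrays of a macrophage experiment. The 10 genes were named by symbol: the HIF subunits Hif1a and Epas1, the HIF hydroxylases Egln1 and Egln3, and the HIF targets Vegfa, Slc2a1, Ndrg1, Bnip3, P4ha1 and Adm. They are 10 of the 19938 genes that had a probe set with a single gene symbol in the platform annotation, and where a gene had several such probe sets the one with the highest mean was used. Vegfa was chosen by its log2 values on the intralipid and PBS arrays, whose large difference was already known, and the other 9 for their place in the HIF pathway, so the values below are a description. All cells were adherent peritoneal cells of male Angptl4-/- mice (C57Bl/6 background), collected 3 days after 4% thioglycollate, which recruits macrophages to the peritoneum, and cultured for 2 days. They then received, for 6 h, PBS, or intralipid (a triglyceride emulsion, 0.5 mM triglyceride), or the same intralipid preceded by 1.5 h with recombinant mouse ANGPTL4 at 2.5 µg/mL, a secreted inhibitor of lipoprotein lipase. Each group was 1 array carrying RNA pooled from 3 samples, the knockout was shared by all groups, and no wild-type array was analysed here. The comparisons ask how these cells respond to a triglyceride load, whether added ANGPTL4 alters that response, and whether the difference in Vegfa came with differences in other HIF-dependent genes.

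Hypoxia-inducible factors (HIFs) are transcription factors made of an oxygen-regulated alpha subunit, encoded by Hif1a or Epas1, and the constant partner ARNT. When oxygen is plentiful, the prolyl hydroxylases of the Egln genes mark the alpha subunit for destruction through the VHL ubiquitin ligase, and the asparagine hydroxylase encoded by Hif1an blocks its activity. When oxygen falls, the alpha subunit accumulates and switches on genes of angiogenesis, glucose uptake, glycolysis and mitochondrial turnover, and Egln1 and Egln3 are themselves among its targets. In macrophages Hif1a also responds to inflammatory signals at normal oxygen. HIF activity is set largely at the level of the protein, which the arrays do not measure.

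The values are log2 expression per probe set as deposited. An expression floor was set on each array at the median of its gene-annotated probe sets, which was 4.98 on the PBS array and 4.97 on both others. Since each group had 1 array, there is no estimate of the variation between cultures and no test, and "higher" and "lower" refer to single arrays. A gene is counted as 2-fold apart where 2 arrays differed by at least 1 on the log2 scale and the higher array reached the floor. Genes at or above the floor on at least 1 array of a pair are the genes tested. The deleted gene, Angptl4, had a log2 value of 4.92 on each array, which does not check the genotype, since the position of its probes relative to the deletion was not established. All 8 macrophage markers examined reached the floor, and 6 of them were within 2-fold on the 3 arrays. The exceptions were Cd14, the lipopolysaccharide co-receptor, 4.29-fold higher than PBS with intralipid and 2.40-fold higher with ANGPTL4, and Fcgr1, an Fc receptor gene, 2.01-fold lower than PBS with ANGPTL4. Their part in the results below was not tested. Of 7 fibroblast markers, 5 reached it, with Lum and Thy1 below it, and their summed linear level was between 2300 and 2330 on the 3 arrays. Neutrophil markers reached the floor in 2 of 6 (S100a8 and Mmp8), mesothelial in 1 of 4 (Wt1), endothelial in 1 of 4 (Vwf), and B and T cell markers in 0 of 2 and 0 of 3. In pooled bulk RNA, a change in the mix of cells and a change in RNA per cell cannot be told apart.

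Vegfa, which encodes the main angiogenic growth factor of the hypoxia response, had a log2 value of 8.09 in PBS, 11.43 under intralipid and 7.89 when ANGPTL4 was added. The intralipid array stood alone, and the array with ANGPTL4 lay slightly below PBS. On the linear scale Vegfa was 10.1-fold higher with intralipid than with PBS, a log2 difference of 3.34, and only 14 of 10049 tested genes, Vegfa included, differed upward by as much. With ANGPTL4 it was 11.6-fold lower than with intralipid alone (log2 difference of -3.54), a downward difference reached by 8 of 10064 tested genes, Vegfa again included. Its single probe set is annotated to many transcripts of the gene, so splice forms of Vegfa were not separated.

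**Figure D1:**
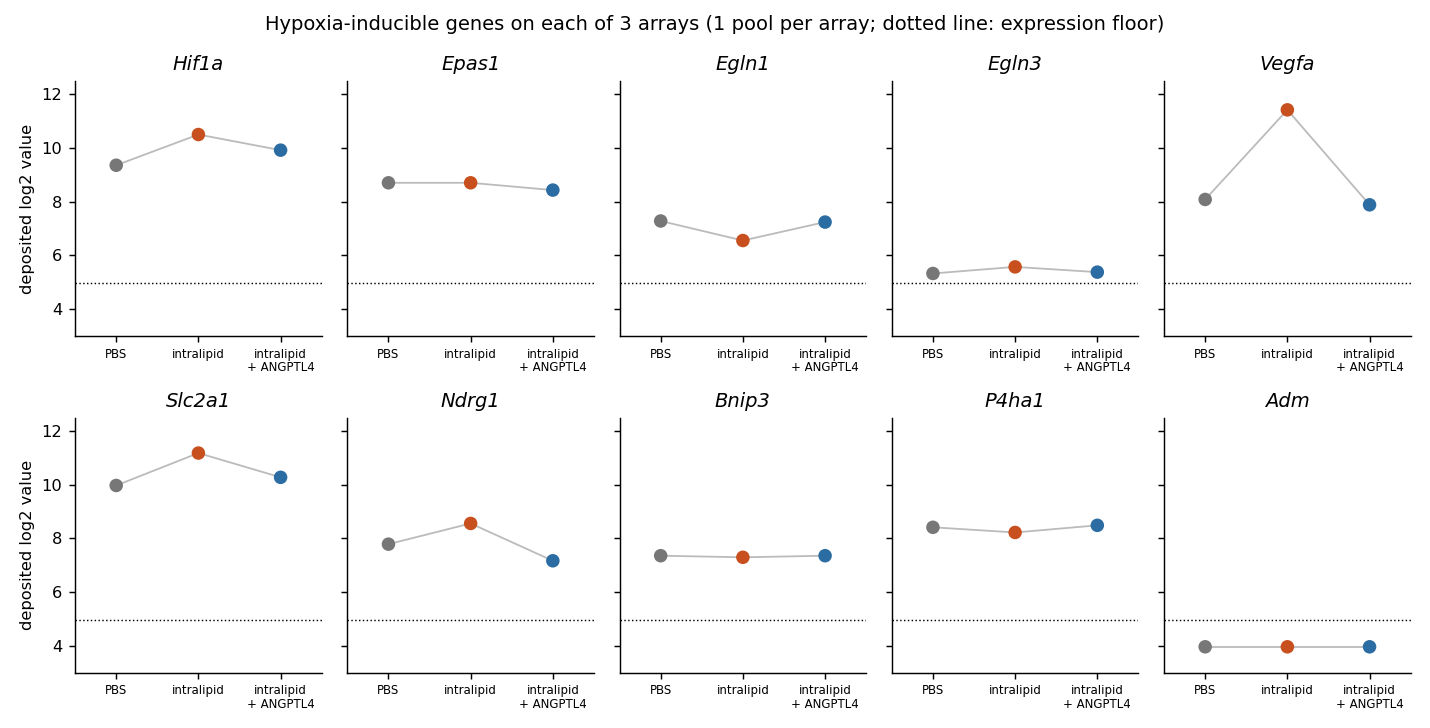
Deposited log2 value (vertical axis) of each of the 10 genes on the PBS, intralipid and intralipid plus ANGPTL4 arrays (horizontal axis), 1 point per array with no error because there was 1 pool per group; the dotted line is the mean of the 3 arrays' expression floors. Vegfa climbs from 8.09 to 11.43 and returns to 7.89, Hif1a and Slc2a1 peak on the same array by less, Egln1 dips there, and Adm sits below the floor on all 3.

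Of the genes for the HIF alpha subunits, Hif1a was higher with intralipid and Epas1 was not. Hif1a had log2 values of 9.36 in PBS, 10.51 under intralipid and 9.92 when ANGPTL4 was added. It was 2.21-fold higher with intralipid than with PBS, and 206 of the 10049 tested genes (2.05%) differed upward by at least as much. With ANGPTL4 it was 1.50-fold lower than with intralipid alone and still 1.48-fold above PBS, between the other arrays. Epas1, which encodes HIF-2α, had the same log2 value of 8.71 with PBS and with intralipid and one of 8.43 with ANGPTL4. Identical values were common in this table, where 41.4% of probe sets held 1 value on all 3 arrays, and such a tie does not show that the transcript amounts were equal.

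Of the hydroxylase genes, Egln1 was lower with intralipid and Egln3 slightly higher. Egln1, which encodes PHD2, the main oxygen sensor of the pathway, had log2 values of 7.28 in PBS, 6.55 under intralipid and 7.24 when ANGPTL4 was added. It was thus lowest on the array where Vegfa was highest, 1.66-fold below PBS, and 1.61-fold higher with ANGPTL4 than under intralipid alone. Of tested genes, 3.43% differed downward from PBS by at least as much and 7.3% in either direction. For the upward difference with ANGPTL4 the share was 6.07%. Egln3, which encodes PHD3 and is strongly HIF-dependent in many cells, had log2 values of 5.33, 5.57 and 5.38 in the same order. These lie just above the floor, and the 1.19-fold difference between intralipid and PBS was matched or passed upward by 10.7% of tested genes and in either direction by 29.9%.

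Further genes for oxygen sensing and HIF partners were examined in the same way. Of 12 such genes, all 12 were measured and 10 reached the floor on at least 1 array. In each of the 3 comparisons 0 of the 12 were 2-fold apart. Of all tested genes, 2.51% were 2-fold higher and 1.32% lower with intralipid than with PBS. With ANGPTL4, 2.53% were higher and 2.30% lower than with intralipid alone, and 0.85% and 0.04% than with PBS. These shares are small, so nothing is read from a count of 0 in 12 genes. The median log2 difference was 0.00 in each comparison, with Arnt2 and Hif3a, below the floor, counted as level. Hif1an, which encodes the asparagine hydroxylase FIH, differed most between intralipid and PBS, with log2 values of 7.14 in PBS, 6.51 under intralipid and 7.28 when ANGPTL4 was added. Egln2, the third prolyl hydroxylase gene, had values of 8.04, 7.62 and 7.94. Like Egln1, both were lowest with intralipid, by 1.55-fold for Hif1an and 1.34-fold for Egln2 against PBS. These directions were common, as 44.4% of all tested genes lay below PBS with intralipid. With ANGPTL4, 46.3% lay above intralipid alone. Arnt, the constant partner, was 1.23-fold higher with intralipid, and Vhl was 1.03-fold lower with intralipid and 1.37-fold higher with ANGPTL4 than under intralipid alone.

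Among the targets other than Vegfa, Slc2a1 was the one 2-fold higher with intralipid. Slc2a1 encodes GLUT1, the glucose transporter that HIF-1 raises, and had log2 values of 9.97 in PBS, 11.18 under intralipid and 10.28 when ANGPTL4 was added. It was 2.31-fold higher with intralipid than with PBS, an upward difference reached by 186 of 10049 genes, and 1.87-fold lower with ANGPTL4 than under intralipid alone. On the ANGPTL4 array it lay 1.23-fold above PBS.

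Ndrg1, a stress-responsive gene that hypoxia induces in many cell types, had log2 values of 7.79 in PBS, 8.56 under intralipid and 7.17 when ANGPTL4 was added. It was 1.71-fold higher with intralipid than with PBS, short of 2-fold. Its larger difference was between the lipid arrays, 2.62-fold lower with ANGPTL4 than under intralipid alone, and 131 of 10064 tested genes (1.30%) were as far down. With ANGPTL4 it was 1.54-fold below PBS, and only 40 of 9995 tested genes differed downward by as much in that comparison.

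Of the remaining 3 targets, P4ha1 stayed close to its PBS value, while Bnip3 and Adm could not be read as surely. Bnip3, whose product targets mitochondria for autophagy, had log2 values of 7.36 in PBS, 7.30 under intralipid and 7.36 when ANGPTL4 was added. A second probe set with this symbol, not used for the gene, had values of 6.71, 6.69 and 6.69. Both are annotated to the same transcripts, and whether the one used also reads a near-identical copy of the gene was not established, so these values may not be those of Bnip3 alone. P4ha1, which encodes a catalytic subunit of the collagen prolyl hydroxylase, had log2 values of 8.42, 8.22 and 8.49, and so was 1.14-fold lower with intralipid than with PBS. Adm, the vasodilator peptide adrenomedullin, stayed below the floor with a log2 value of 3.96 on every array, so a fold for it cannot be read.

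**Figure D2:**
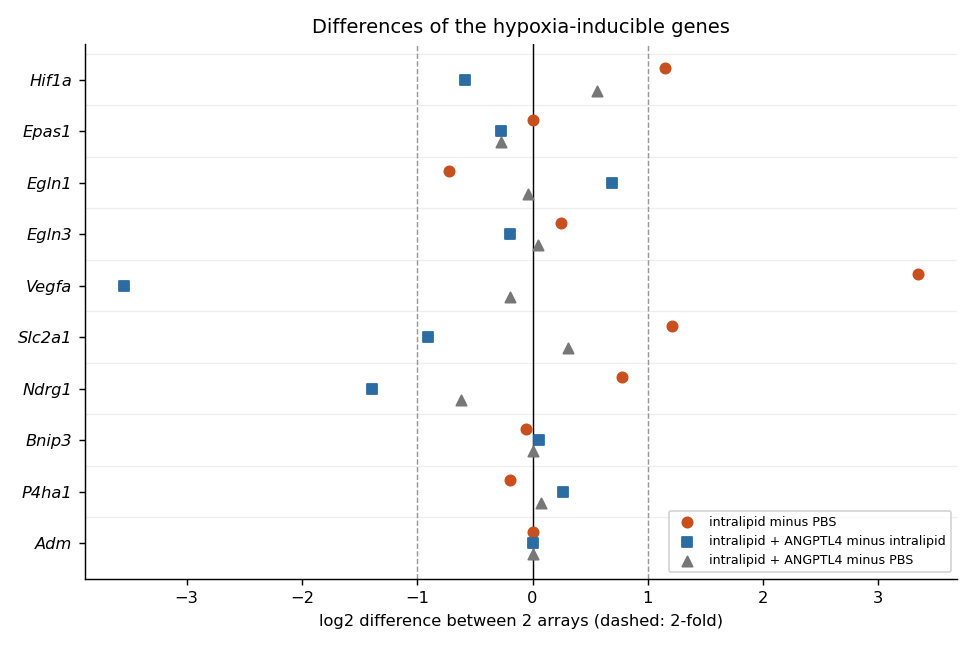
Log2 difference between pairs of arrays (horizontal axis, dashed lines at 2-fold) for each of the 10 genes: intralipid minus PBS (circles), intralipid plus ANGPTL4 minus intralipid (squares) and intralipid plus ANGPTL4 minus PBS (triangles), 1 array per group and no error. Vegfa lies far outside the dashed lines at 3.34 and -3.54, Hif1a and Slc2a1 just outside on the right, Ndrg1 outside on the left, and all 10 triangles lie between the dashed lines.

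HIF binds the short core ACGTG or GCGTG, and the bases around the start sites of the members were searched for it to see whether the genes that differed could be told from those that did not by these letters. RefSeq windows of 300 bases on GRCm38.p6, from 250 bases before to 50 after an annotated start, were held for 8 of the 10 members, not for Epas1 and Ndrg1. The windows of 3 members that were 2-fold higher with intralipid (Vegfa, Slc2a1 and Hif1a) and of 2 targets that were not (Bnip3 and P4ha1) are given 5′ to 3′ in the gene's direction. Capitals mark ACGTG or GCGTG on either strand, so that CACGT and CACGC in capitals are the same cores read on the opposite strand, and adjoining or overlapping cores run together.
Vegfa, GRCm38.p6 chr17:46032328-46032627, minus strand: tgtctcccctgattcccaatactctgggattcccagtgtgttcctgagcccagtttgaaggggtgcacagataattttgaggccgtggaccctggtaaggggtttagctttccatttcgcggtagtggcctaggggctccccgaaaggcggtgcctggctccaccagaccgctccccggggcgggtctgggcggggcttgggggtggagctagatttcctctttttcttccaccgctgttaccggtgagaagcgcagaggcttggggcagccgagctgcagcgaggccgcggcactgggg
Slc2a1, GRCm38.p6 chr4:119108495-119108794, plus strand: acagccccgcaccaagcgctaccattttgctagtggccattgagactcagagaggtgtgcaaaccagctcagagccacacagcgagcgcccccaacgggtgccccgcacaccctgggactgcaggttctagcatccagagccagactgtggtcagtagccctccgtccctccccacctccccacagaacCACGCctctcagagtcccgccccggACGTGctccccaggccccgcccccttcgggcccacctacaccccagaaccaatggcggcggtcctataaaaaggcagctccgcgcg
Hif1a, GRCm38.p6 chr12:73907617-73907916, plus strand: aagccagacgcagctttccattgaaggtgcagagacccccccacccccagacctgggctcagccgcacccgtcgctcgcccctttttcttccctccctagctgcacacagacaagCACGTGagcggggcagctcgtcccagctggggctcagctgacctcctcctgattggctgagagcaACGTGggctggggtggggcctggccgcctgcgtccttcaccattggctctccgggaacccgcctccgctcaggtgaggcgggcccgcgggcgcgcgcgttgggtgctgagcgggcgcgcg
Bnip3, GRCm38.p6 chr7:138909457-138909756, minus strand: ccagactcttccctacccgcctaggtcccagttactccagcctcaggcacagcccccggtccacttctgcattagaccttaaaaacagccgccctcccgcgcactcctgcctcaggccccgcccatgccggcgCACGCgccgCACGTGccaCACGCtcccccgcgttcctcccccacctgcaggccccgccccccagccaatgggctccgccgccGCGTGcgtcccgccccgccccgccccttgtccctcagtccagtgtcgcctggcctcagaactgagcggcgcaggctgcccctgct
P4ha1, GRCm38.p6 chr10:59323046-59323345, plus strand: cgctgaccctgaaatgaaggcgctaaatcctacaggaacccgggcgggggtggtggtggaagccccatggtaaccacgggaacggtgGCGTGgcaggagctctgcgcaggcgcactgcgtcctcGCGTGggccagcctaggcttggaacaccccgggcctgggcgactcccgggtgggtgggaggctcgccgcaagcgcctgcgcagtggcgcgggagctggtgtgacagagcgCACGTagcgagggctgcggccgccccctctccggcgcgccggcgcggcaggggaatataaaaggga

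Among the members, the window at the upstream start of Vegfa held neither core. One at a second annotated start (chr17:46025114-46025413, not printed above) held both, 1 ACGTG and 1 GCGTG. That start lies farther along the gene, and whether those cores lie in a regulatory region was not established. Bnip3, with log2 values within 0.06 of each other on the 3 arrays, held the most, 5 cores when both strands are counted, among them a palindrome that reads ACGTG on each strand. In Slc2a1 the ACGTG began 36 bases before the start, and in P4ha1 the same core lay on the opposite strand, 16 bases before it. P4ha1 and Hif1a held 3 each, and Slc2a1, Egln1 and Adm 2. All 8 members had a core in at least 1 window, Vegfa only in the one at its second start. Counted by window, 8 of the 9 windows of the members held a core. Of all 32851 RefSeq windows of this length 43.8% did, with ACGTG in 19.6% and GCGTG in 32.4%. A core was thus present in windows of members that were 2-fold higher with intralipid and of members that were not. Vegfa is also a known target of AP-1 and of the stress factors ATF4 and CHOP. Neither the AP-1 motif TGANTCA, found in 7.81% of all windows, nor TGATGNAA, a core of ATF4 and CHOP composite sites found in 3.97%, was present in any of the 9 windows of the members. These letters say nothing of sites farther away, where many hypoxia response elements lie, and a match is not evidence of binding.

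Counted over the members, 3 of 10 (Vegfa, Hif1a and Slc2a1) were at least 2-fold higher with intralipid than with PBS, and 0 were 2-fold lower. The background was 2.51% of tested genes higher and 1.32% lower. Without Vegfa, 2 of the other 9 were higher and the median log2 difference of those 9 was 0.00. With all 10 the median was 0.12. Both medians count Adm, which lay below the floor and is not a tested gene, as level. They are therefore not like for like with the median of 0.00 over all genes tested. The members were listed with these results known, so the share is set beside the background and nothing is read from it.

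Between intralipid plus ANGPTL4 and intralipid alone, 2 of 10 members (Vegfa and Ndrg1) were at least 2-fold lower and 0 higher, against backgrounds of 2.30% lower and 2.53% higher. The median over the 10 members, with Adm again counted as level, was -0.23, and that over all tested genes was 0.00. This comparison shares the intralipid array with the one above, so any error on that array enters both with opposite sign. Between intralipid plus ANGPTL4 and PBS, 0 of 10 members were 2-fold apart in either direction, with backgrounds of 0.85% higher and 0.04% lower. The member farthest above PBS there was Hif1a, by 0.56 on the log2 scale, and the one farthest below was Ndrg1, with a difference of -0.62.

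**Figure D3:**
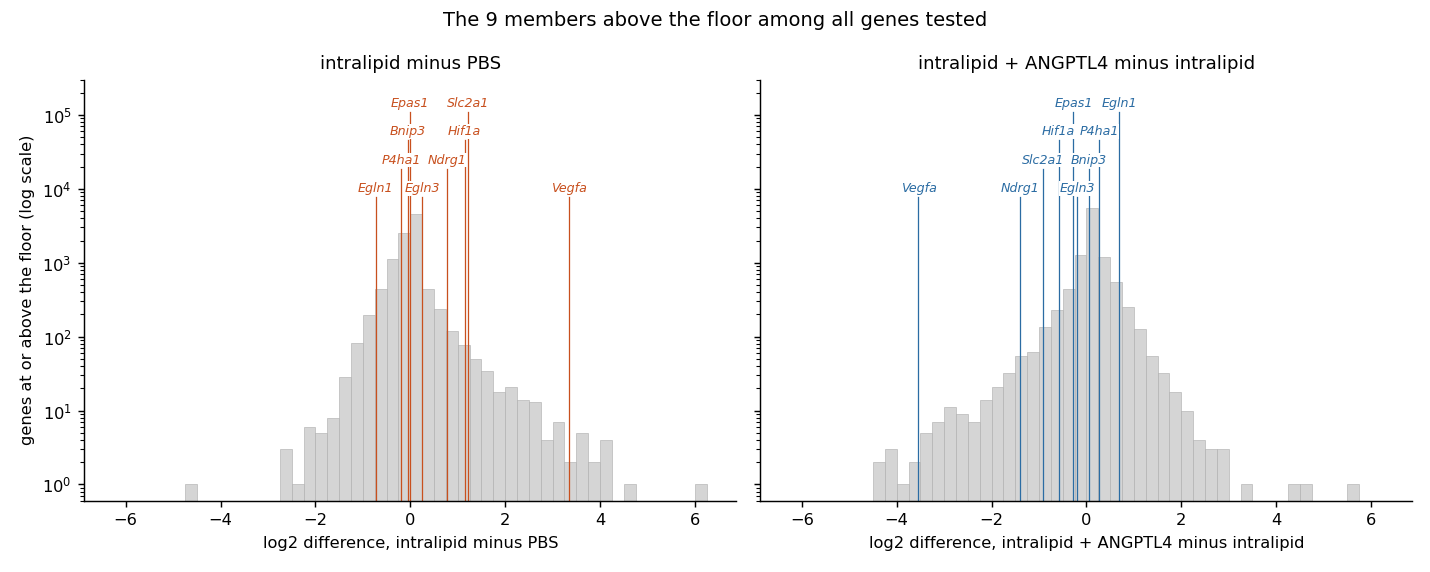
Number of tested genes (vertical axis, log scale) in bins of 0.25 of the log2 difference (horizontal axis) for intralipid minus PBS (left, 10049 genes) and intralipid plus ANGPTL4 minus intralipid (right, 10064 genes); lines mark the 9 members above the floor, and Adm is left out. Vegfa lies in the sparse outer tail of both panels, Hif1a, Slc2a1 and Ndrg1 on the shoulders, and Bnip3, P4ha1, Egln3 and Epas1 within the main peak.

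A longer list of HIF targets, made of genes of glycolysis and others, was used to look past these members. Of its genes, 46 were measured, while Gpi1, Gapdh and Eno1 had no probe set with their symbol alone. Of the 46, 39 were at the floor or above on some array. With intralipid, 6 of the 46 (13.0%) were at least 2-fold higher than with PBS and 0 lower, beside 2.51% and 1.32% of all tested genes. Of the 46, 22 lay below PBS, 12 above it and 12 level with it, and the median log2 difference was 0.00. Of the tested genes as a whole, 44.4% lay below PBS, 23.5% above and 32.1% level, with a median of 0.00. In both sets more genes lay below PBS than above. The genes of the 46 below the floor on every array were all level with PBS, and none of them is a tested gene. The shares and medians of the 46 and of the tested genes are thus of unlike sets.

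The differences upward were held by few genes. Hilpda, found at lipid droplets, where it restrains triglyceride breakdown, is induced by both hypoxia and fatty acids. It was 17.8-fold higher with intralipid than with PBS, with log2 values of 7.65, 11.80 and 8.79 on the PBS, intralipid and ANGPTL4 arrays. Ddit4, which encodes the mTOR inhibitor REDD1, was 4.54-fold higher, with log2 values of 5.37 in PBS, 7.55 under intralipid and 5.39 when ANGPTL4 was added. Pfkfb3, whose enzyme makes the activator of glycolytic phosphofructokinase, was 2.68-fold higher, with log2 values of 8.66, 10.08 and 8.61. Mxi1, a MYC antagonist, was 2.40-fold higher, Arg1, an arginase of alternatively activated macrophages, 2.08-fold and Bhlhe40, a transcriptional repressor, 2.05-fold. Ddit4 and Hilpda are also induced by other stresses, and the arrays do not tell which factor acted on them.

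Most glycolysis genes were within 2-fold of PBS. Of 17 measured glycolysis genes, 1 (Pfkfb3) was 2-fold higher with intralipid, 4 lay above PBS in all, 10 below and 3 level with it, and the median was -0.06. The 1 gene is 5.88% of the 17, beside 2.51% of all tested genes at least 2-fold higher. Of all tested genes, 23.5% lay above PBS and 44.4% below. Only 16 of the 17 reached the floor, and nothing is read from these counts. Hexokinase Hk2 was 1.77-fold higher, with log2 values of 9.03, 9.85 and 9.36 on the arrays in order, and lactate dehydrogenase Ldha was 1.30-fold higher. Triosephosphate isomerase Tpi1 was 1.35-fold lower, phosphofructokinase Pfkl 1.28-fold lower and the lactate exporter Slc16a3 1.22-fold lower. Phosphoglycerate kinase Pgk1 and pyruvate kinase Pkm were each 1.09-fold lower. Pdk1, which holds pyruvate back from mitochondria, was 1.17-fold lower.

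For several targets that hypoxia induces in many cell types, the difference from PBS was small or could not be read. Ankrd37 lay below the floor with 1 identical value on the 3 arrays, so no difference can be read for it. Car9 and P4ha2, with log2 values of 5.25 and 5.39, lay just above the floor and were identical on the arrays too. Such ties do not show that the transcript amounts were equal. Kdm3a, a histone demethylase, had log2 values of 7.96 on all 3 arrays, Bnip3l was 1.03-fold lower with intralipid, and Ero1a 1.07-fold higher. Farther from PBS were Tfrc, the transferrin receptor, 1.81-fold lower with intralipid, and Zfp395, 1.83-fold lower. With ANGPTL4 against intralipid alone, 5 of the 46 were 2-fold lower (Hilpda 8.05-fold, Ddit4 4.48-fold, Mxi1 2.95-fold, Pfkfb3 2.77-fold and Bhlhe40 2.40-fold) and 2 were higher (Pdgfb 2.85-fold and Hmox1 2.02-fold). These are 10.9% and 4.35% of the list, beside 2.30% lower and 2.53% higher among all tested genes. With ANGPTL4 against PBS, Hilpda was 2.21-fold and Pdgfb 2.19-fold higher, and the other 44 were within 2-fold, beside backgrounds of 0.85% higher and 0.04% lower.

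Of the other VEGF family genes, Vegfb and Vegfc reached the floor and were within 2-fold between intralipid and PBS. So were most tested genes, of which 2.51% were 2-fold higher and 1.32% lower. The log2 values with PBS, intralipid and ANGPTL4 were 7.77, 7.71 and 7.63 for Vegfb and 5.81, 5.79 and 5.90 for Vegfc, while Vegfd and Pgf lay below the floor on all 3 arrays. The receptor genes Flt1 and Flt4 lay below it as well, and Kdr lay close to it, with log2 values of 5.28, 5.28 and 5.13. The co-receptors neuropilin 1 and 2 were lower with intralipid than with PBS, by 1.61-fold for Nrp1 and 1.78-fold for Nrp2. With ANGPTL4, Nrp2 was 3.32-fold higher than with intralipid alone.

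Of 15 measured genes for VEGF relatives, receptors and other angiogenic factors, 3 were 2-fold higher with intralipid, against 2.51% of all tested genes. The median was 0.00, but only 9 of the 15 reached the floor on any array, so for the rest no difference can be read. They were Thbs1, the anti-angiogenic matrix protein thrombospondin 1 (4.25-fold), and the EGF receptor ligands Hbegf (3.31-fold) and Ereg (2.30-fold). The log2 values of Thbs1 were 10.88 with PBS, 12.97 with intralipid and 9.95 with ANGPTL4, so an inhibitor of vessel growth peaked on the same array as Vegfa. Ereg cleared the floor only with intralipid, so its fold rests on values near background. Areg had no probe set with its symbol alone.

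Other stress-responsive genes were set beside the HIF targets, namely those of ATF4, a factor of the integrated stress response, and AP-1. Their differences on these arrays were known when the lists were made. Of 14 ATF4 and CHOP genes, 9 were 2-fold higher with intralipid than with PBS and 0 lower, with a median log2 difference of 1.36, beside 2.51% higher, 1.32% lower and a median of 0.00 over all tested genes. Atf4 itself was 2.11-fold higher, with log2 values of 8.87, 9.94 and 8.99 on the arrays in order. Above it were Trib3 (6.32-fold), Ddit3, the gene for CHOP (5.39-fold), Sesn2 (4.68-fold), the eIF2α phosphatase subunit gene Ppp1r15a (4.56-fold), the cystine transporter gene Slc7a11 (4.31-fold), Cebpb (3.52-fold), Chac1 (2.91-fold) and asparagine synthetase Asns (2.27-fold). Slc7a11 did not return with ANGPTL4 and was then 5.69-fold higher than with PBS. Of 7 AP-1 subunit genes, 5 were 2-fold higher and 0 lower, with a median of 1.92, beside the same background. They were Junb (5.40-fold), Fosl2 (3.79-fold), Jun (2.89-fold), Fos and Fosb. Fos had log2 values of 7.81, 10.19 and 8.64, and Fosb, which cleared the floor only with intralipid, values of 4.44, 9.03 and 4.65. With ANGPTL4 against intralipid alone, 5 of the 14 ATF4 and CHOP genes (Ddit3, Trib3, Chac1, Sesn2 and Ppp1r15a) and the same 5 AP-1 genes were 2-fold lower, beside 2.30% of all tested genes. The medians were -0.94 for the ATF4 and CHOP genes and -1.66 for the AP-1 genes. The activity of these factors was neither measured nor disturbed here, so which of them acted on Vegfa was not tested.

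**Figure D4:**
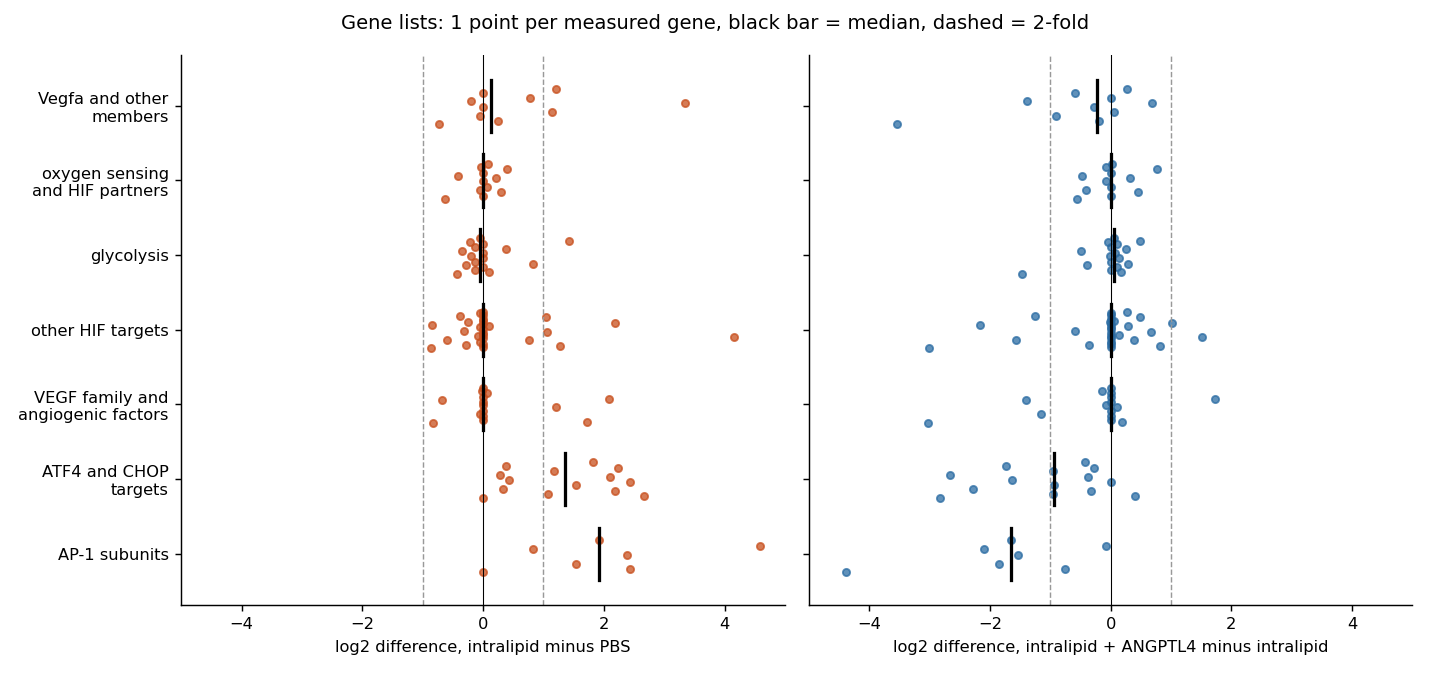
Log2 difference (horizontal axis) of each measured gene of 7 lists for intralipid minus PBS (left) and intralipid plus ANGPTL4 minus intralipid (right); points are genes, black bars the list medians and dashed lines mark 2-fold, with 1 array per group. In the left panel the medians of the oxygen-sensing, glycolysis, other HIF target and angiogenic lists lie at or near 0. Those of the ATF4 and CHOP list (1.36) and the AP-1 list (1.92) lie beyond 2-fold there. The lists were made with these differences known, and their medians count genes below the floor in unlike shares. The contrast between lists is thus a description from which nothing is read.

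The genes whose pattern over the 3 arrays was most like that of Vegfa were sought by the Euclidean distance between pairs of log2 differences (intralipid minus PBS, and intralipid plus ANGPTL4 minus intralipid) over the other 10089 genes at the floor on at least 1 array. The nearest was the replication-dependent histone gene H4c9, at a distance of 0.24, followed by Rgs1, a regulator of G protein signalling (0.37), Tnfaip6 (0.39), the MAP kinase phosphatase Dusp1 (0.44) and Il6 (0.46). Malsu1 (0.51), Nr4a1 (0.52), the histone gene H3c4 (0.61), Csrnp1 (0.66) and Dusp10 (0.66) made up the 10. This distance weighs the size of the differences as well as their order, so a gene with a smaller difference up and back, such as Ddit4 or Pfkfb3, cannot be near Vegfa by it. The nearest gene, H4c9, had log2 values of 5.69 in PBS, 8.98 under intralipid and 5.68 when ANGPTL4 was added. Tnfaip6, Il6 and H3c4 cleared the floor only with intralipid, and a likeness over 3 arrays is a description.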

How the data were processed

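RNA from 3 pooled samples per group was hybridised to 1 Affymetrix array per group after labelling 100 ng with a whole-transcript assay, from RNA with an integrity number above 8, per the labels' protocols. The deposited table gives log2 expression for 35556 probe sets on each array, made with RMA per the submitters' processing notes. For its version, the chip definition and any filter, the sources used here give nothing. The lipase inhibitor named in the protocol was on no array analysed here.

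Values were used as deposited. A single gene symbol was annotated to 21789 probe sets. All 10 members matched RefSeq by gene identifier, and 9 had a single probe set. Differences are between log2 values, and folds are their linear ratios. The genes called tested are those at or above the floor on at least 1 array of a pair, and they were set against the 2-fold threshold. Precision is limited by the number of arrays, and no p-value was computed. The members, the 6 gene lists and the 7 marker lists were chosen with earlier results of these data known. The text names all members, genes of the 6 lists 2-fold apart, up to 4 others per list with large differences, and the 10 genes most like Vegfa. Further list genes (among them Egln2, Arnt, Vhl, Kdm3a, Car9, the VEGF relatives and several glycolysis genes) were named after their values were seen. A further item of the lists is not reported here. The calling step was tested on simulated data. Alternatives tried were thresholds of 1.5-fold and 3-fold, omission of the floor, a floor at the 60th percentile, median centring, quantile and cyclic loess normalization (limma 3.58.1, R 4.3.3) and the mean over a gene's probe sets. Tables were handled with Python 3.11.15, pandas 2.3.3 and numpy 2.4.6, and plots drawn with matplotlib 3.10.9.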

Additional observations from a re-analysis of the deposited data

How the results depend on the processing

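Under median centring, quantile and cyclic loess normalization and the mean over probe sets, all 120 member differences recomputed kept their side of the 2-fold threshold, and those past it kept their direction. Part of these could hardly have changed. For the 9 members with a single probe set the mean over probe sets is the same value, and median centring shifts all genes of a comparison alike. For Vegfa the log2 difference between intralipid and PBS ranged from 3.31 to 3.35. For Hif1a it ranged from 1.11 to 1.16. Of the counts of the members and of the longer HIF target list under the 8 alternatives, those that changed by more than 1.5 times did so with the fold threshold. At 1.5-fold, 1 member was lower with intralipid than with PBS (Egln1), 1 higher with ANGPTL4 than with intralipid alone (Egln1) and 1 lower with ANGPTL4 than with PBS (Ndrg1). At that threshold, 3 genes of the longer HIF target list were lower with intralipid than with PBS and 4 higher with ANGPTL4 than with intralipid alone. At 3-fold, 1 member, Vegfa, was higher with intralipid than with PBS and lower with ANGPTL4 than with intralipid. In the longer list, 2 genes were then higher with intralipid and 2 lower with ANGPTL4 than with intralipid, and 0 were higher with ANGPTL4 than with intralipid or PBS. Recomputing the counts of the other lists was chosen after seeing the data, and these too changed by that much with the fold threshold and with no other alternative. For intralipid against PBS at 1.5-fold, 1 oxygen-sensing gene was lower, 2 glycolysis genes higher and 2 angiogenic genes lower. For ANGPTL4 against intralipid alone, 1 oxygen-sensing gene was higher and 8 ATF4 and CHOP genes lower. For ANGPTL4 against PBS, 1 angiogenic gene was higher, 1 angiogenic gene lower, and 2 ATF4 and CHOP genes and 2 AP-1 genes higher. At 3-fold, 0 glycolysis genes were higher with intralipid than with PBS, 0 were lower with ANGPTL4 than with intralipid, and 1 angiogenic gene was lower in that comparison. No paired analysis was possible because each group had 1 array. No array could be left out for the same reason. Low signal limits Adm, which stayed below the floor, and Egln3, just above it.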

Other observations

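Some genes of the HIF target and angiogenic lists were highest on the array with intralipid plus ANGPTL4. Pdgfb, a growth factor for pericytes, had log2 values of 7.22 in PBS, 6.83 under intralipid and 8.35 when ANGPTL4 was added. Hmox1, the haem-degrading enzyme, had values of 10.95, 10.36 and 11.37, and the semaphorin and VEGF co-receptor Nrp2 had 8.98, 8.15 and 9.88. These 3 genes were thus lowest with intralipid alone and highest with ANGPTL4, an order that Vegfa did not have. Other list genes, among them Narf, Plod2, Lox and Hif1an, had the same order with smaller differences. Of all tested genes, 44.4% lay below PBS with intralipid, and 46.3% lay above intralipid alone with ANGPTL4. Pdgfb, Hmox1 and Nrp2 were picked after their values were seen.

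Probe sets of 1 symbol did not always run alike. For Ak4, an adenylate kinase and HIF target, the probe set used was identical on the 3 arrays. The other had log2 values of 4.21 in PBS, 4.20 under intralipid and 5.10 when ANGPTL4 was added. Only the last of these reached the floor, and it lay just above the 4.97 of that array, so its rise rests on values near background. For Zfp395 the log2 difference between intralipid and PBS was -0.87 in the probe set used and -0.09 in the other. For Hk1 it was 0.09 in the probe set used and -0.37 in the other.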
